A study of Mus musculus with 18 samples.

Results

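The miR-17 cluster is a run of 6 microRNA hairpins on mouse chromosome 14, carried by the long noncoding host transcript Mir17hg. Its members in the MYC peak lists were taken to be all peaks whose summit lay within 10 kb of the Mir17 hairpin (chromosome 14, 115043671 to 115043754, plus strand, mm10). There were 15 such peaks among the 10376 of the 9 lists. They came from 7 libraries, each with a peak at 2 recurrent positions upstream of the hairpins, and from WT replicate 3 at a further position between these. The locus was chosen by the peak calls themselves, that is, by where and in how many lists a peak stood near Mir17, so their presence, folds and ranks are given as a description and no test was made on them.

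MYC is a transcription factor that binds DNA with its partner MAX, often at E-boxes. The miR-17 cluster is among its known targets, and in human cells MYC is known to bind the host gene upstream of the hairpins and to raise the cluster's transcription. The hairpins are cut from 1 primary transcript, and the mature microRNAs lower the output of messenger RNAs that pair with their seeds. Known targets include the growth inhibitor Cdkn1a and the pro-apoptotic Bcl2l11. The clusters around Mir106a, on chromosome X, and Mir106b, in the Mcm7 gene on chromosome 5, are paralogues of the miR-17 cluster.

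The mature sequences show what these clusters share. The 6 principal arms of the miR-17 cluster and 1 arm from each paralogue cluster are given with the seed, bases 2 to 8, in capitals (RefSeq, GRCm38.p6, the assembly behind mm10).
mmu-miR-17-5p: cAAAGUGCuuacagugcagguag
mmu-miR-20a-5p: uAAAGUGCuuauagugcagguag
mmu-miR-18a-5p: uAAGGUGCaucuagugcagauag
mmu-miR-19a-3p: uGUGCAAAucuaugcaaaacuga
mmu-miR-19b-3p: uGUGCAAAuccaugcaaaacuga
mmu-miR-92a-3p: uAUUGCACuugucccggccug
mmu-miR-106a-5p: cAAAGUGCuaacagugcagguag
mmu-miR-106b-5p: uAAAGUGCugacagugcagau
All 15 hairpins of the 3 clusters matched the sequence table, and their principal arms fell into 4 seed groups. The AAAGUGC seed was shared by 6 hairpins, 2 in each cluster (Mir17 and Mir20a, Mir106a and Mir20b, Mir106b and Mir93). AUUGCAC was shared by 4 (Mir92-1, Mir92-2, Mir363 and Mir25), GUGCAAA by 3 (Mir19a, Mir19b-1 and Mir19b-2) and AAGGUGC by 2 (Mir18 and Mir18b). Each seed of the miR-17 cluster was thus also carried by the Mir106a cluster.

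The peaks were measured by chromatin immunoprecipitation and sequencing of frozen liver tumours from FVB mice, with an antibody against MYC. All mice carried LAP-tta, which drives expression in the liver, and TRE-MYC, so that tumours formed once doxycycline was withdrawn. Homo tumours (Arid1afl/fl with Alb-cre, about 100 days of age) and Het tumours (Arid1afl/+ with Alb-cre, about 70 days) were set beside WT tumours (Arid1aflfl without Alb-cre, about 55 days), with 3 MYC libraries each. Homo and Het differed in age as well as Arid1a dose, and WT differed from both in age, Cre and Arid1a dose, so these cannot be told apart. Arid1a belongs to the SWI/SNF complex, which remodels chromatin, and Alb-cre acts in cells of the hepatocyte lineage, so other cells of a tumour keep the gene. The labels do not say that libraries of a genotype came from separate animals. Whether fewer cells were bound or each cell was bound less cannot be told apart in whole tumours, and the peaks do not separate transgenic from endogenous MYC.

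The lists differed greatly in length, from 51 to 303 peaks in Homo, from 378 to 1869 in Het and from 92 to 4291 in WT. Homo replicate 2 and WT replicate 1 stood apart, with 17.6% and 15.2% of their summits 1 kb or less from where a protein-coding gene begins or ends, against 43.9% to 64.4% in the other 7 libraries. These were also the shortest lists and the libraries without a peak at the miR-17 cluster. The lists hold no expression values, so the tissue label was not checked against marker genes, and no level of any microRNA was measured.

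Every peak at the locus lay upstream of the hairpins, in sequence without an annotated gene. The hairpins follow each other within less than 1 kb, with Mir18, Mir19a, Mir20a, Mir19b-1 and Mir92-1 starting 180, 329, 486, 634 and 756 bp after the start of Mir17. RefSeq places Mir17hg at 115044390 to 115046728, so that its annotated start lies 719 bp beyond the start of Mir17 and 5 of the 6 hairpins begin before it. The nearest annotated genes on either side were Gm31072, 92.3 kb below the lowest summit, and Gpc5, a glypican gene that starts 45.5 kb beyond the end of Mir17hg.

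The proximal site had a peak in 2 of 3 Homo, 3 of 3 Het and 2 of 3 WT libraries. Its summits lay 1285 to 1313 bp upstream of the start of Mir17 (median 1299 bp). The 7 summits fell within 28 bp of each other (SD 9.98 bp), between 115042358 and 115042386, although each was called separately. All 7 peak intervals shared 416 bp, from 115042189 to 115042604, and their lengths ran from 442 to 626 bp.

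The distal site had a peak in the same 7 libraries. Its summits lay 3008 to 3077 bp upstream of the start of Mir17 (median 3044 bp), between 115040594 and 115040663, and spread over 69 bp (SD 23.6 bp). The intervals shared 273 bp, from 115040446 to 115040718. Their lengths varied more than at the proximal site, with 397 and 369 bp in Homo replicates 1 and 3, 558, 816 and 273 bp in Het replicates 1, 2 and 3, and 850 and 864 bp in WT replicates 2 and 3. The proximal and distal summits of a library were 1703 to 1792 bp apart, and the intervals never touched.

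A middle peak, 372 bp long, was listed in WT replicate 3 alone, the library with the longest list. Its summit at 115041590 lay 2081 bp upstream of Mir17. Its fold was 9.71, with 38 reads at the summit.

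**Figure D1:**
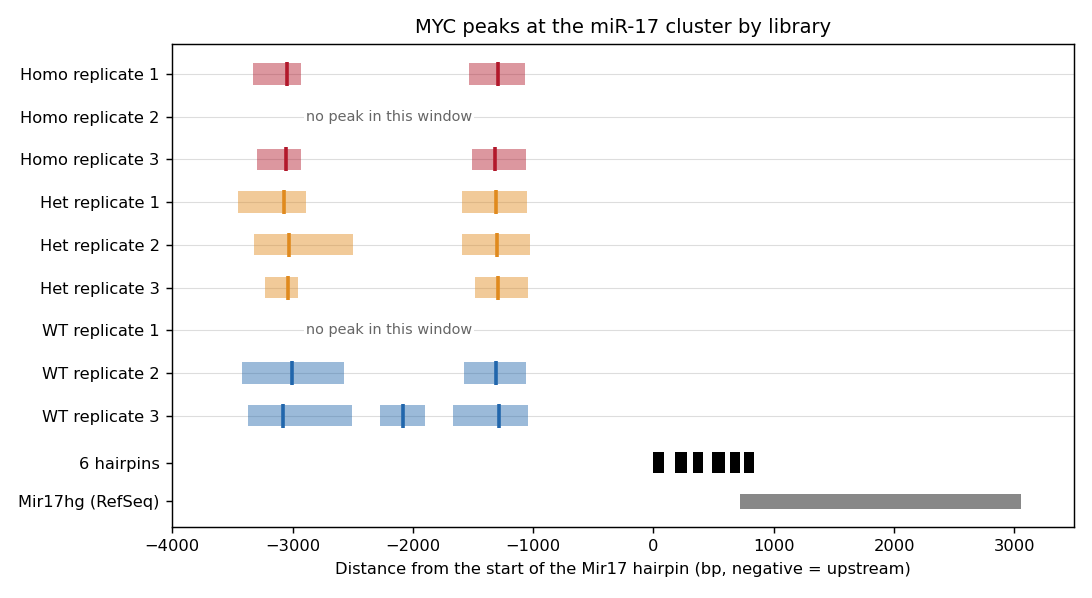
Peak intervals (bars) and summits (ticks) of the 9 MYC libraries against the distance in bp from the start of the Mir17 hairpin, with the 6 hairpins in black and the RefSeq span of Mir17hg in grey. The 7 libraries with peaks share a proximal site at 1285 to 1313 bp and a distal site at 3008 to 3077 bp upstream, and WT replicate 3 has a middle peak at 2081 bp.

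At the level of all genes, a summit within 10 kb of the gene in at least 7 of the 9 libraries was found for 0.314% of 49980 RefSeq genes and for 0.651% of 1228 microRNA genes. These 8 microRNA genes included 6 that were the hairpins of the miR-17 cluster, all sharing the same peaks. The other 2 were Mir7035, inside Rasa4, and Gm24148, annotated as a microRNA inside the nucleolin gene Ncl. By genotype, a peak in at least 2 Homo libraries was found for 0.378% of all genes, in 3 Het libraries for 1.07% and in at least 2 WT libraries for 5.37%. In single libraries the share was 0.472%, 0.164% and 1.2% in Homo, 6.45%, 6.86% and 1.22% in Het, and 0.236%, 5.77% and 14.2% in WT, in replicate order. Among 4775 merged MYC regions 1.86% had a peak in at least 7 libraries, and both sites of the locus were among these 89 regions. The locus was chosen for its peaks, so nothing is read from these shares beyond how common such a pattern was.

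The fold, which is the authors' own value for a peak, is the ratio of MYC reads to local background at the summit, both scaled per library and with 1 then added to each. It is therefore smaller than the plain ratio of reads to background. At the proximal site it was 10.7 and 14.2 in Homo replicates 1 and 3. In Het replicates 1, 2 and 3 it was 18.8, 12.6 and 6.77, and in WT replicates 2 and 3 it was 16.1 and 27.9. Over the libraries with a peak the mean was 12.4 ± 2.49 in Homo (SD, n = 2), 12.7 ± 6.02 in Het (n = 3) and 22.0 ± 8.39 in WT (n = 2). The Het values overlapped both other genotypes, and both Homo values were below both WT values, with 1 library of each of these genotypes lacking the peak. How many other MYC regions had this order was not counted, so it is given as a description only. Folds from separate lists carry separate depths and backgrounds, and 3 libraries against 3 could not give an exact two-sided p below 0.1 in any case.

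Behind these folds stood between 71 and 128 MYC reads at the proximal summit. Homo replicates 1 and 3 had 73 and 98 reads (exact Poisson 95% intervals 57.2 to 91.8 and 79.6 to 119). Het replicates 1, 2 and 3 had 128 reads (107 to 152), 106 reads (86.8 to 128) and 71 reads (55.5 to 89.6), and WT replicates 2 and 3 had 91 reads (73.3 to 112) and 113 reads (93.1 to 136). These reads, counted before scaling, covered a narrower range than the folds, and the genotypes overlapped in them. Unscaled counts carry the depth of each library, so this overlap is not read as equal signal in the genotypes. Reads after scaling were not compared between genotypes. Local background, in the same unit, ran from 2.15 reads in WT replicate 3, the lowest value in its whole list, to 8.65 reads in Het replicate 3. Het replicate 3, with the lowest proximal fold, had the highest background at this summit and the fewest reads. These intervals cover counting error only.

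Within its own list the proximal peak was near the top in 6 of 7 libraries. It ranked 6 of 112 and 7 of 303 by fold in Homo replicates 1 and 3, 21 of 1713 and 124 of 1869 in Het replicates 1 and 2, and 47 of 1567 and 9 of 4291 in WT replicates 2 and 3. In Het replicate 3 it ranked 195 of 378. The share of the list with a lower fold was 94.6% and 97.4% in Homo, 98.8%, 93.4% and 48.4% in Het, and 97.0% and 99.8% in WT, with the libraries of a genotype in replicate order. The genotypes overlapped by this measure. Ordered by −log10 p in place of fold, the peak of Het replicate 3 moved up to rank 72 of 378. On chromosome 14 alone, the proximal peak ranked 2 of 4 and 1 of 12 by fold in Homo replicates 1 and 3. It ranked 2 of 61, 3 of 64 and 8 of 13 in Het replicates 1, 2 and 3, and 2 of 53 and 2 of 148 in WT replicates 2 and 3. The 4 peaks of Homo replicate 1 included the distal one. By median fold over its libraries, the proximal site ranked 21 among the 89 regions found in at least 7 libraries.

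The distal peak was weaker than the proximal one in each of the 7 libraries. Its fold was 5.35 and 5.004 in Homo replicates 1 and 3, 8.91, 9.48 and 5.89 in Het replicates 1, 2 and 3, and 13.01 and 8.93 in WT replicates 2 and 3. Both Homo values were below all Het and WT values, whereas Het and WT overlapped. The share of other MYC regions with this order was not counted, so nothing is read from it. The distal summits held 48 and 68 reads in Homo, 90, 59 and 41 in Het, and 59 and 86 in WT. By reads before scaling, the Homo libraries lay inside the range of the others, over a background of 7.06 and 10.7 reads. Such counts carry the depth of each library, so neither they nor the folds are read as a difference between genotypes. In the other 5 libraries the distal background ran from 2.51 reads in WT replicate 2, the lowest value in that list, to 7.88 reads in WT replicate 3.

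By rank the distal peak was nearer the end of the short lists than of the long ones. Its rank was 90 of 112 and 255 of 303 in the Homo libraries. Among Het libraries it was 311 of 1713, 370 of 1869 and 271 of 378, and among WT libraries 87 of 1567 and 917 of 4291. The lowest −log10 p listed was 6.97 and 6.41 in Homo replicates 1 and 3, 5.83, 5.85 and 6.17 in Het replicates 1, 2 and 3, and 5.84 and 5.27 in WT replicates 2 and 3. These limits were thus highest in the short lists, and their part in the ranks was not tested. The distal peaks of these Homo libraries had −log10 p of 10.9 and 10.1. By median fold the distal site ranked 61 among the 89 regions found in at least 7 libraries.

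The proximal fold exceeded the distal fold by 1.15 to 3.13 times within a library (median 1.995). The ratio was 1.995 and 2.84 in Homo replicates 1 and 3, 2.11, 1.33 and 1.15 in Het replicates 1, 2 and 3, and 1.24 and 3.13 in WT replicates 2 and 3. The genotypes overlapped. The counting intervals of the 2 folds were apart in 4 libraries, which were both Homo libraries, Het replicate 1 and WT replicate 3. In these same 4 libraries the local background was lower at the proximal than at the distal summit. By reads alone the ratio was steadier, between 1.31 and 1.80 (median 1.52), and the proximal summit had more reads in 7 of 7 libraries.

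**Figure D2:**
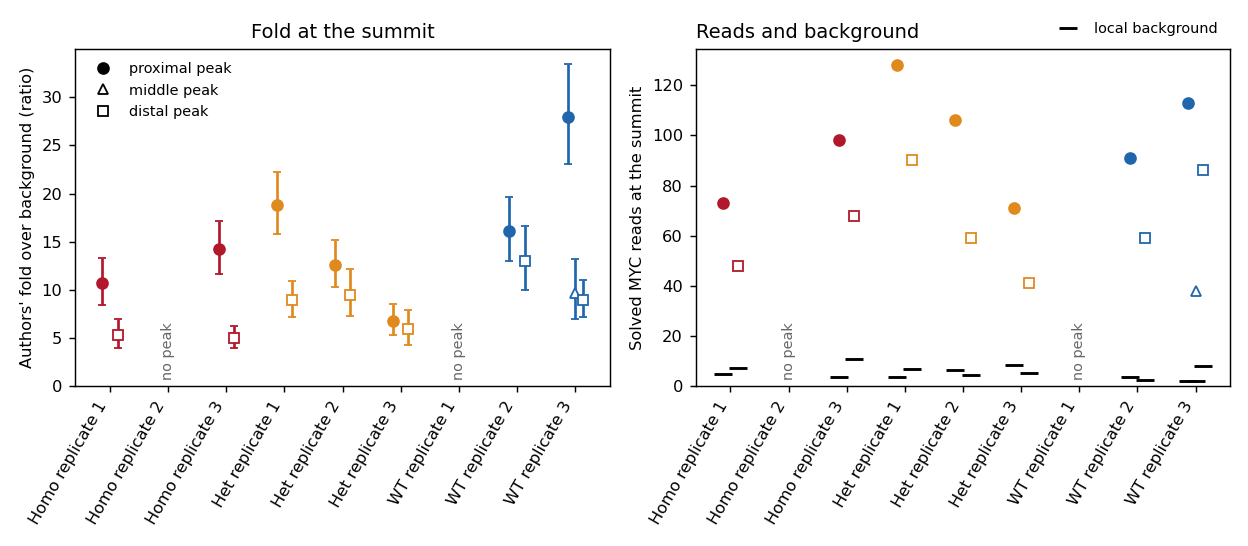
Left, the authors' fold at the summit (ratio) for each library, with 95% intervals for the count of reads at the summit. Right, MYC reads under the summit, with the local background as black dashes in the same unit. The proximal peak (filled) is above the distal peak (open squares) in 7 of 7 libraries, by 1.15 to 3.13 times in fold and 1.31 to 1.80 times in reads, and Homo replicate 2 and WT replicate 1 have no peak.

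In Homo replicate 2 and WT replicate 1 the nearest peak to the cluster was 35.7 Mb away, and it was the only peak of either list on chromosome 14. The lowest −log10 p listed there was 9.08 in Homo replicate 2 and 8.23 in WT replicate 1, against 18.8 to 76.7 for the proximal peak in the other 7 libraries. A missing peak means that no window passed the caller's limit in that library, not that MYC was absent. With every list shortened to its 51 highest folds, the length of the shortest list, the locus kept a peak in 5 libraries and lost those of Het replicates 2 and 3. Shortened by −log10 p, it kept a peak in 6 and lost that of Het replicate 3. Whether the low share of gene ends in these libraries plays a part in the missing peaks was not tested.

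**Figure D3:**
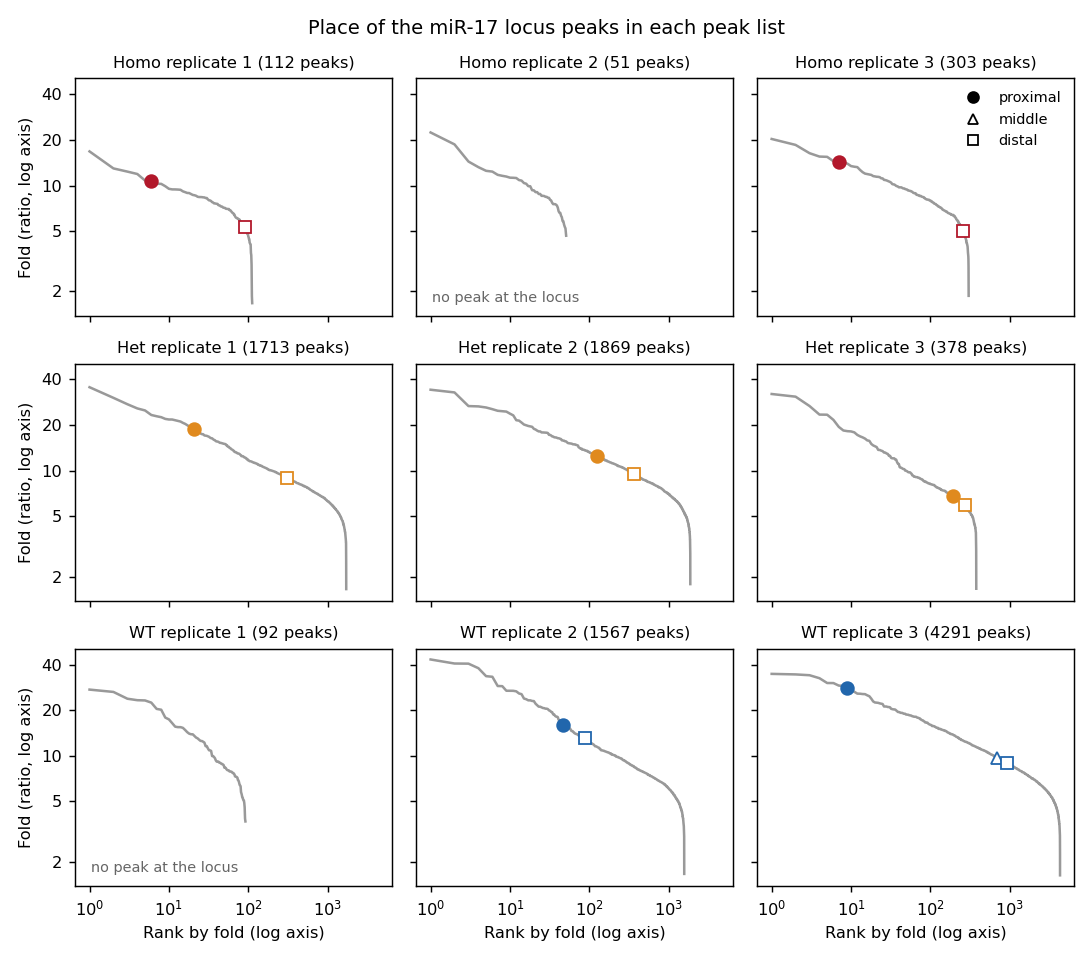
Fold against rank by fold, both on log axes, for each of the 9 lists (grey line), with the proximal (filled circle), middle (triangle) and distal (square) peaks of the miR-17 locus. The proximal peak is at rank 6 to 124 in 6 libraries and at rank 195 of 378 in Het replicate 3.

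The 10 kb limit cut through no cluster of peaks. The farthest member was 3077 bp from Mir17, and the nearest summit outside the window was 3.09 Mb away, in WT replicate 3. In the other libraries the nearest summit outside was 3.96 to 35.7 Mb away. A second summit of the same list within 2 kb, as at this locus, was found for 3.57% to 12.5% of peaks, depending on the library.

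The paralogue clusters differed from the miR-17 cluster in distance to the nearest summit. For the Mir106b cluster, the nearest summit was 5246 to 5326 bp from the hairpins in 4 libraries, 2 Het and 2 WT. These summits lay inside Mcm7, which encodes a subunit of the replicative helicase, 967 to 1047 bp from the upper end of its span (chromosome 5, 138164583 to 138172111). In the other 5 libraries, the 3 Homo libraries included, the nearest summit was 2.06 to 4.202 Mb away. These 5 had the shortest lists, of 51 to 378 peaks, against 1567 to 4291 in the 4 libraries with the summit. Of all genes, 0.164% to 1.22% had a summit within 10 kb in each of the 5, against 5.77% to 14.2% in the 4. The part of list length was not tested. For the Mir106a cluster no library had a summit within 10 kb. The nearest was 281.9 kb away in 6 libraries, at the same place each time, and 14.8 to 22.4 Mb away in the other 3.

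**Figure D4:**
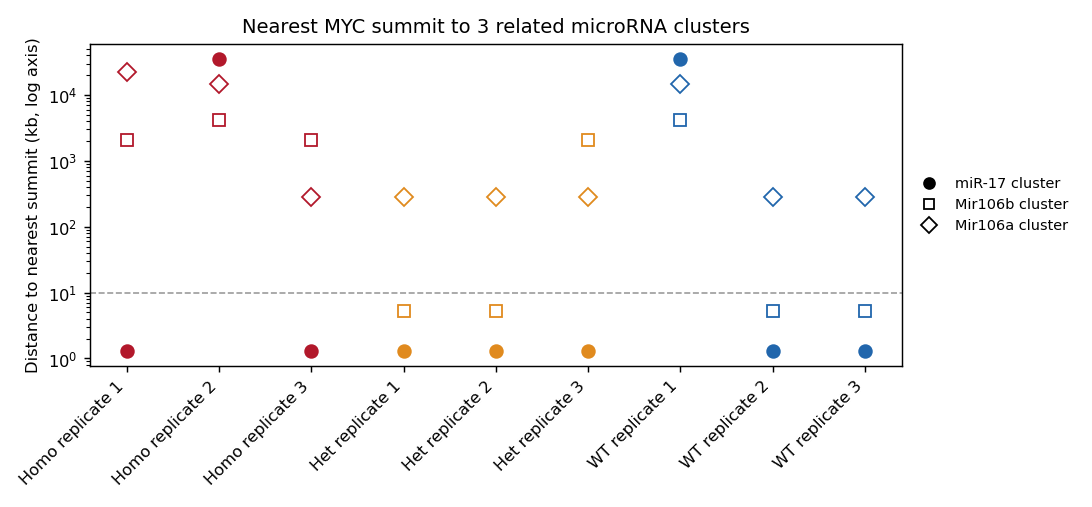
Distance in kb, on a log axis, from each cluster of hairpins to the nearest MYC summit of each library, with the 10 kb limit dashed. The miR-17 cluster has a summit at about 1.3 kb in 7 libraries, the Mir106b cluster at about 5.3 kb in 4, and the Mir106a cluster has none within 10 kb.

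Genes of the microRNA pathway were listed beside the locus, with a gene counted when a summit lay within 10 kb of its span. Of 16 processing and effector genes, 10 had a peak in at least 1 library, 2 in at least 4 and 1 in at least 7, against 25.3%, 6.02% and 0.457% of protein-coding genes. By genotype, 1 of the genes had a peak in a Homo library, 5 in a Het library and 10 in a WT library. Several had it in WT replicate 3 alone, the library with the longest list. Of all genes, 0.164% to 1.2% had a summit in a single Homo library, 1.22% to 6.86% in a Het library and 0.236% to 14.2% in a WT library. The share over any library of a genotype was not counted, so these counts are not read as a difference between genotypes. Ran, the GTPase that exportins need to carry precursor hairpins out of the nucleus, had a peak in the same 7 libraries as Mir17. Its fold was 5.13 and 8.93 in Homo, 6.26, 11.4 and 8.23 in Het and 9.67 and 17.4 in WT. Dgcr8, the RNA-binding partner of the nuclear microRNA nuclease Drosha, had a summit in 2 Het and 2 WT libraries, 5075 to 5486 bp below its span, with folds between 5.25 and 11.0. A span window favours long genes, and neighbouring genes share peaks.

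Of 12 genes known as targets of the cluster, 5 had a peak in at least 1 library, against 25.3% of protein-coding genes. Most of the 5 had it in WT replicate 3 alone, the library with the longest list. Cdkn1a, which encodes the cell cycle inhibitor p21, had a summit 3657 to 4675 bp beyond its upper end in 1 Homo, 1 Het and 2 WT libraries, with folds between 4.31 and 8.55. The 1 Homo library was replicate 2. A peak in at least 4 libraries was found for 6.02% of protein-coding genes. Of 22 other microRNA genes known to be lowered by MYC, 21 matched the annotation, 3 had a peak in at least 1 library and 1 in at least 4. This gene, Mir150, had a summit in 1 Homo, 2 Het and 2 WT libraries with folds between 5.46 and 12.9. The strongest summit was not at the same place in all of them. It lay 2725 to 2782 bp beyond the upper end of the hairpin in Homo replicate 3, Het replicate 1 and WT replicate 3. In Het replicate 2 and WT replicate 2 it lay 7240 and 7247 bp beyond. Mirlet7a-1 and Mirlet7f-1, which adjoin each other, had a summit in WT replicates 2 and 3. The share of all microRNA genes with a peak in at least 1 library was 13.8%, and 3.66% had one in at least 4.

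Other genes had the same presence and absence over the 9 libraries as Mir17, in all 62 of 49980 RefSeq genes (0.124%), the hairpins and the host among them. Ordered by the mean absolute difference of the within-list percentile over the 7 libraries, the 5 closest outside the locus were Cox5a (8.08 percentage points), Eif5a (15.6), Ppia (16.3), Cnbp (17.01) and 1600020E01Rik (18.9). Cox5a encodes a subunit of cytochrome c oxidase, Eif5a a translation factor and Ppia cyclophilin A. The Eif5a peaks were shared with Gps2 and Neurl4, and those of 1600020E01Rik with Pcbp1. Cox5a had folds of 9.37 and 8.53 in Homo, 13.1, 17.7 and 7.54 in Het and 13.9 and 16.9 in WT. Like Mir17, it had its lowest Het percentile in replicate 3, as did Eif5a, Cnbp and 1600020E01Rik, whereas Ppia had it in replicate 1. The genes were picked for percentiles close to those of Mir17, so this was favoured by the choice. These likenesses are over 7 libraries whose depths and list lengths are shared by every gene.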

How the data were processed

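The 9 MYC chromatin immunoprecipitation libraries made from liver tumours were analysed, 3 per Arid1a genotype, grouped and numbered by their titles. The 9 input samples had no file of their own used here. Per the submitters' processing notes, the genome build was mm10 and the tools were MACS2 2.0.10.20131216, Bowtie2 2.2.3, HOMER and Picard. The caller's threshold is one of the settings not given in the sources used here. The authors deposited 1 peak list per library, without a header, with the fold over background (a ratio), the −log10 p and −log10 q, an integer score close to 10 times the −log10 q, which was not used, and the summit offset. Replicates were not pooled.

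Summits were taken as start plus offset and written 1-based. Gene spans and microRNA sequences came from RefSeq tables of GRCm38.p6. Reads at the summit and local background were solved per peak from the deposited fold and −log10 p, as the fold is (scaled reads + 1)/(background + 1) and p the upper tail of a Poisson distribution. A single whole read number fitted both values in 99.2% of 10376 peaks, within 0.001 reads on the scaled axis. All 15 peaks of the locus were among these, and the solver was tested on simulated peaks. Intervals are exact Poisson 95% intervals of the reads, with the background held fixed. They cover counting error only.

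A peak set was compared by position, rank and library. No test was made, since the members and gene lists were chosen with earlier results of these data known. Regions are overlapping peaks merged over libraries. Genes named are all members, bordering genes, list genes with a peak in at least 4 libraries (up to 4 a list) and the 5 genes most like the locus. One gene that this rule named is not reported here. Sites were separated where summits lay more than 500 bp apart. Alternatives covered the window, stricter limits, ranking, list length and each library left out. The analysis used Python 3.11.15, NumPy 2.4.6, pandas 2.3.3 and SciPy 1.17.1.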

Additional observations from a re-analysis of the deposited data

How the results depend on the processing

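The locus kept a peak in 7 libraries with windows of 5, 25 and 50 kb, with membership by peak interval, and with limits of −log10 q 5, fold 5 or −log10 p 10. With a window of 1 kb the count was 0, since every summit lies more than 1 kb from Mir17, and no fold could be given. Leaving out each library in turn gave 6 to 7 libraries, a median fold of the strongest peak between 13.4 and 15.1 (14.2 with all), a median percentile between 95.8 and 97.2 (97.0 with all), and strongest summits within 22 to 28 bp. The median percentile was 96.7 when ranked by −log10 p or −log10 q. Without Homo replicate 2 and WT replicate 1, an alternative chosen after seeing the data, as was shortening by −log10 p, the count was 7 of 7. This count was fixed in advance, because these were the only libraries without a peak at the locus. The nearest summit of any library stayed 281880 to 281886 bp from the Mir106a cluster and 5246 to 5251 bp from the Mir106b cluster. As the smallest distance over all libraries, it can hardly move when 1 library is left out. With the limit of fold 5, the Mcm7 summit of Het replicate 1 is lost. No paired analysis was possible because no comparison between genotypes comes from a test, and the proximal and distal peaks of a library were set side by side as a description only. Peaks below the caller's limit are not in the lists, so a missing peak sets no upper limit on binding. Ranks from lists of different lengths, and folds and reads from libraries of different depth, are not measures of a change between genotypes.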

Other observations

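RefSeq gives Mir17hg a start inside the cluster, so the promoter window of the table (250 bases before to 50 after that start, chromosome 14, 115044140 to 115044439) overlaps 3 hairpins. It held 0 of the 15 summits, the nearest of which was 1754 bp below it. The E-box CACGTG and the variant CACGCG, searched on both strands, did not occur in it, while 7.15% and 9.27% of the 32851 promoter windows in the table hold them. The sequence under the peaks was not used here.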
